A study of Oryctolagus cuniculus with 16 samples.

Results

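The vaginal wall beside a tissue-particle graft was set against the wall of rabbits that had no surgery. The comparison rests on 10 of the 16 libraries of the series, with 13001 named genes counted in each. Every animal was a juvenile female of the New Zealand White strain, 17 to 19 weeks old. The 4 PLATE libraries (PLATE 1, 5, 9 and 13) come from vaginas that received a PLATE graft, a graft seeded with small pieces of the animal's own tissue. They are the samples labelled as treated with tissue particles, and they were cut 10 mm away from the graft, so they sample the host wall beside the graft. The 6 control libraries (control 2, 9, 16, 24, 25 and 29) come from native vaginas. For these the labels give no position along the vagina and no surgery, so graft, operation and site cannot be told apart in this comparison. The other 6 libraries, 3 beside an acellular graft and 3 from sham operations, entered the statistical model and are quoted where they help to place a value. No transgene and no drug is named for any group, and the time between surgery and sampling is not given in the sources used here. Animal number 9 is used for 1 control and for 1 PLATE library. Whether a single rabbit stands behind both is not stated, and they were treated as independent.

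The vaginal wall is a tube of smooth muscle and collagen-rich connective tissue, lined by an epithelium and supplied with vessels, nerves and resident immune cells. A surgical wound in such a wall is first filled with a provisional matrix and visited by neutrophils and macrophages, which release interleukin 1, chemokines and matrix-degrading proteases. Fibroblasts then divide, lay down fibrillar collagen and partly acquire contractile features, and lymphocytes and antigen-presenting cells can persist in the tissue for longer. The comparison asks whether such transcripts differ in the host wall near a healing graft. Poly(A) RNA of the bulk tissue was sequenced, so fewer cells of a type and less RNA per cell cannot be told apart.

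Libraries of the 2 groups were of similar depth. Counts on named genes ran from 16871203 to 22058343 in PLATE libraries and from 17152300 to 23236339 in control libraries. Depth, the share of counts without a gene symbol, the mitochondrial share, the number of genes seen and the share taken by the 10 highest genes did not pass a test between the groups (two-sided exact permutation test over 210 assignments, p of 0.367 or more for each of these measures, 0.819 after Benjamini-Hochberg adjustment, with 0.00952 the smallest p the design can give). Markers of the vaginal wall were present in every library. ACTG2, the visceral smooth muscle actin, was at 12290, 12310, 3552 and 4589 CPM in PLATE 1, 5, 9 and 13 and lay between 959 and 49070 CPM (median 12420) in the controls. HOXD13, a positional transcription factor of the distal reproductive tract, was at 115.9, 145, 101.3 and 143 CPM in the PLATE libraries and between 55.4 and 322 CPM (median 166) in the controls. The groups overlapped for both genes. In 3 of the 10 libraries, PLATE 1, control 2 and control 9, the make-up was unlike that of the rest of their group. Control 2 was nearly devoid of columnar epithelium, with EPCAM, an epithelial adhesion molecule, at 1.71 CPM, and 26.02% of its named counts were mitochondrial. Control 9 was rich in epithelial and immune transcripts and held the least smooth muscle of the 6 controls. Values of gene lists are given with and without PLATE 1, which is described below, and the weight of the 2 controls is stated where a value turns on them.

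No gene passed the test between PLATE and control. Of 10942 genes tested, 0 passed an adjusted p of 0.05 in the quasi-likelihood test of edgeR (0% of all genes, smallest adjusted p = 0.998), and without PLATE 1 0 of 10910 passed (0%, smallest adjusted p = 1). The unadjusted p fell below 0.05 for 480 genes, 361 of them higher (3.3%) and 119 lower (1.09%) in PLATE. That is 4.39% of those tested, where 547 genes would be expected with no difference at all. Without PLATE 1 there were 190 such genes (1.74%), 61 higher (0.559%) and 129 lower (1.18%). DESeq2 and limma voom also called 0 genes and placed 585 and 536 genes under an unadjusted p of 0.05. Without PLATE 1 DESeq2 placed 309 there, 70 higher and 239 lower, and voom 530, 339 higher and 191 lower, so the balance of directions differed between tools. Log2 fold changes below are PLATE over control with the standard error of the fit, levels are in CPM, the counts of a gene scaled to a fixed total of counts on named genes (the usual unit of RNA-seq levels) after TMM correction of library size (trimmed mean of M values), and every gene named had an adjusted p of at least 0.998 in edgeR in each fit that tested it. IBSP was not tested without PLATE 1. Where a list below has fewer members without PLATE 1, the missing member passed the filter on low counts only with that library included. Higher and lower therefore describe the libraries measured and are not calls. Over all genes the log2 fold change was positive for 47.7% and negative for 52.3% (median -0.01), and without PLATE 1 positive for 45.1% and negative for 54.9% (median -0.03).

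PLATE 1 carried most of what set the group apart. In this library 145 genes stood at least 4-fold above the highest of the other 15 libraries and 17 stood at least 4-fold below the lowest. In none of the other libraries did more than 5 genes lie as far above the rest, and the largest number below was 63, in control 2. The 10 genes highest in PLATE 1 relative to the other libraries were IBSP, MMP3, MMP12, IL1A, COL11A1, ARG1, MMP1, SLC16A3, IL1B and SERPINB2. MMP3, or stromelysin, a broad protease of the extracellular matrix, was at 289, 0.0437, 0.157 and 0.787 CPM in PLATE 1, 5, 9 and 13, against 0 to 3.76 CPM (median 0.992) in the controls. MMP1, an interstitial collagenase, was at 1955, 0.611, 1.83 and 5.36 CPM in the same libraries and between 0 and 8.12 CPM (median 5.14) in the controls. MMP12, the elastase of macrophages, was at 2229, 4.02, 0.837 and 59.2 CPM in PLATE libraries, against 0 to 55.3 CPM (median 16.01). For all 3 proteases PLATE 1 was the highest of the 16 libraries, and the other 3 PLATE libraries overlapped the controls, PLATE 13 lying just above them for MMP12.

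The interleukin 1 cytokines showed the same picture. IL1B, the central secreted cytokine of early inflammation, was at 1894, 4.45, 10.6 and 11.3 CPM in PLATE 1, 5, 9 and 13, and between 10.1 and 106.3 CPM (median 21.5) in the controls. PLATE 1 lay far above all controls, PLATE 5 below them, and PLATE 9 and 13 near their low end. The log2 fold change was 3.81 ± 1.31 with all libraries and -1.96 ± 0.77 without PLATE 1, of opposite sign (unadjusted p = 0.0109 and 0.0231). IL1A, which is released by damaged cells, was at 157, 0.175, 0.575 and 0.492 CPM in PLATE 1, 5, 9 and 13, against 0 to 4.77 CPM (median 0.590) in the controls. ARG1, the arginase of alternatively activated macrophages, was at 458, 1.83, 8.63 and 5.76 CPM in PLATE libraries and between 1.37 and 18.1 CPM (median 3.81) in controls, with a log2 fold change of 4.13 ± 1.26 that became -0.33 ± 0.85 without PLATE 1. IBSP, an integrin-binding sialoprotein known from mineralised tissue, had 3501 counts in PLATE 1, between 0 and 3 counts in each other PLATE library and between 0 and 38 counts in each control. COL11A1, a minor fibrillar collagen chain of cartilage and of activated fibroblasts, was at 288, 3.93, 0.575 and 1.92 CPM in the PLATE libraries, against 0.265 to 8.24 CPM (median 0.966). SERPINB2, an inhibitor of plasminogen activators, and SLC16A3, the lactate exporter of glycolytic cells, completed the 10 genes highest in PLATE 1 relative to every other library, at 91.3 and 52.97 CPM, against at most 5.49 and 2.60 CPM in a control.

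Among the 10 genes lowest in PLATE 1 were RXFP1, NR3C2, FRZB and MMRN1. RXFP1, the relaxin receptor, was at 94.4, 647, 1296 and 584 CPM in PLATE 1, 5, 9 and 13, against 435 to 1387 CPM (median 619) in the controls. NR3C2, the mineralocorticoid receptor, was at 2.199, 35.8, 41.8 and 29.3 CPM in the PLATE libraries and between 17.1 and 44.8 CPM (median 28.8) in the controls. FRZB, a secreted Wnt antagonist, was at 15.6, 179.5, 208 and 205 CPM, against 76.4 to 376 CPM (median 176). MMRN1, a marker of lymphatic endothelium and platelets, was at 8.15, 123, 241 and 73.9 CPM, against 42.0 to 206 CPM (median 97.0). In each of these 4 genes PLATE 1 was the lowest of all 16 libraries and the other 3 PLATE libraries lay inside the control range, but for MMRN1 in PLATE 9. ESR1, the oestrogen receptor, was likewise lowest in PLATE 1, at 46.8, 428, 447 and 346 CPM, against 162 to 371 CPM (median 301). PLATE 5 and 9 lay above all controls for ESR1 and PLATE 13 near their upper end, and its log2 fold change of 0.13 ± 0.41 with all libraries became 0.49 ± 0.22 without PLATE 1.

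**Figure D1:**
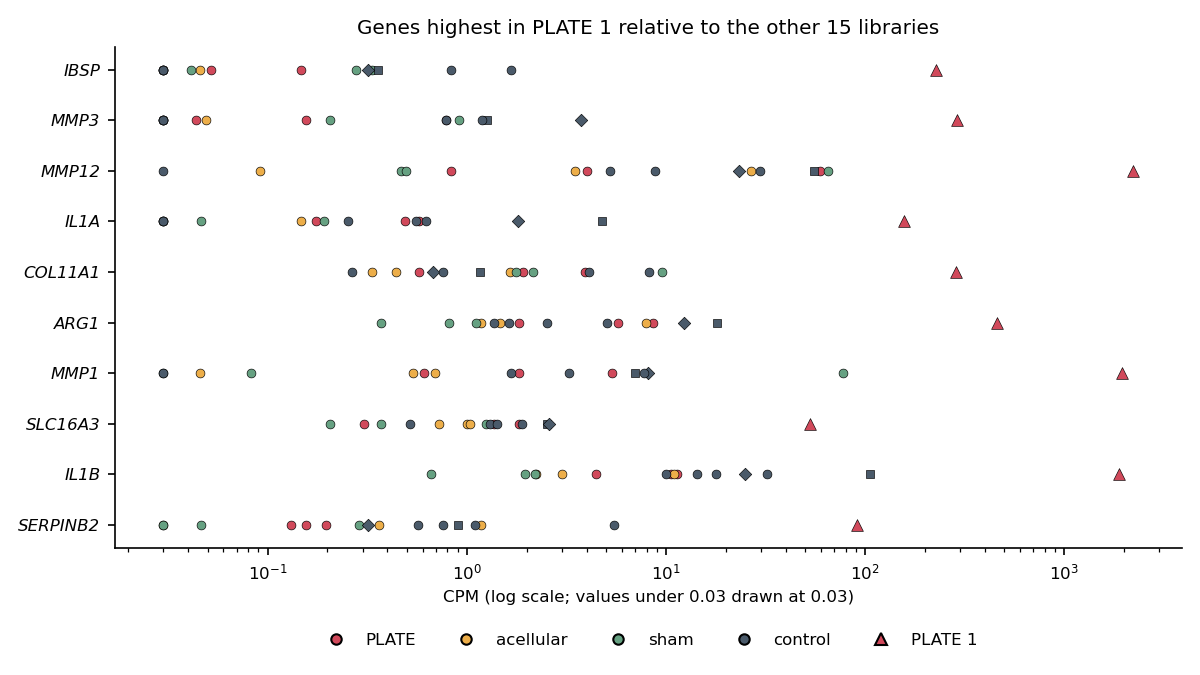
Levels in CPM (log scale) of the 10 genes highest in PLATE 1 relative to the other 15 libraries, with 1 symbol per library coloured by group. PLATE 1, the triangle, stands alone on the right of each row (1894 CPM for IL1B and 289 CPM for MMP3), while the other PLATE libraries mix with the remaining groups.

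Antigen presentation by MHC class II was higher in PLATE libraries with and without PLATE 1. Class II molecules display peptides from ingested proteins to helper T cells. CIITA is the master switch of their genes, CD74 is the invariant chain that guides them through the cell, and HLA-DOB acts in peptide loading. All 15 tested members of the list had a positive log2 fold change, with a median of 1.47, against -0.01 for all genes. Without PLATE 1, 13 of 15 were positive with a median of 0.70, which became 0.26 when PLATE 13 was left out as well (12 of 15 positive). None passed the adjusted threshold in either fit, 11 of the 15 had an unadjusted p under 0.05 with all libraries (4.39% of all genes), and 0 without PLATE 1 (1.74%).

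CIITA was at 42.7, 5.24, 7.38 and 10.6 CPM in PLATE 1, 5, 9 and 13 and between 0.900 and 15.9 CPM (median 2.19) in the controls. Only control 9, at 15.9 CPM, reached the PLATE values, the other 5 controls lying at or under 3.35 CPM. HLA-DRA, a chain of the peptide-binding DR molecule, was at 4844, 799.9, 1168 and 1345 CPM in the PLATE libraries, against 221 to 1800 CPM (median 368) in the controls. Again control 9 alone, at 1800 CPM, lay within the PLATE values, and the next control was at 626 CPM. Its log2 fold change was 1.75 ± 0.65 with all libraries and 0.87 ± 0.62 without PLATE 1 (unadjusted p = 0.0162 and 0.181). CD74 was at 4306, 779, 1101 and 1379 CPM in PLATE 1, 5, 9 and 13, and between 199 and 1955 CPM (median 344) in the controls, with 1955 CPM in control 9. HLA-DOB was at 94.5, 6.68, 7.53 and 14.96 CPM, against 1.89 to 18.2 CPM (median 3.86), with 18.2 CPM in control 9. For all 4 genes PLATE 1 was the highest of the 10 libraries, control 9 came next, and the other 5 controls lay below every PLATE library. The members share these libraries and are not independent of each other.

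The mean level of the class II list overlapped between the groups, through control 9. It was 7.04, 4.88, 5.12 and 5.46 log2 CPM in PLATE 1, 5, 9 and 13. In the controls it ran from 3.65 to 5.76 log2 CPM. The highest value was that of control 9, above PLATE 5, 9 and 13, and the other controls ended at 4.58. Sham libraries lay at 3.92 to 4.07 and acellular libraries at 3.77 to 5.34 log2 CPM, so that 2 of the 3 acellular libraries lay within the PLATE values. Control 9 was singled out after its values were seen, as the only control among the PLATE values. Counts without overlap that leave it out follow from that choice and are no support. Without it, 10 of the 15 class II genes were higher in all PLATE libraries than in all remaining controls, as were 1.9% of all genes tested, and the list's median was 2.00. In that fit 1272 genes (11.7%) had an unadjusted p under 0.05, and 0.807% of genes were lower without overlap. With both PLATE 1 and control 9 left out, again 10 of the 15 were higher without overlap, beside 3.77% of all genes higher and 2.13% lower, 7.98% of genes had an unadjusted p under 0.05, and the list's median was 1.03. The adjusted threshold was met by 0 genes in these fits as well.

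**Figure D2:**
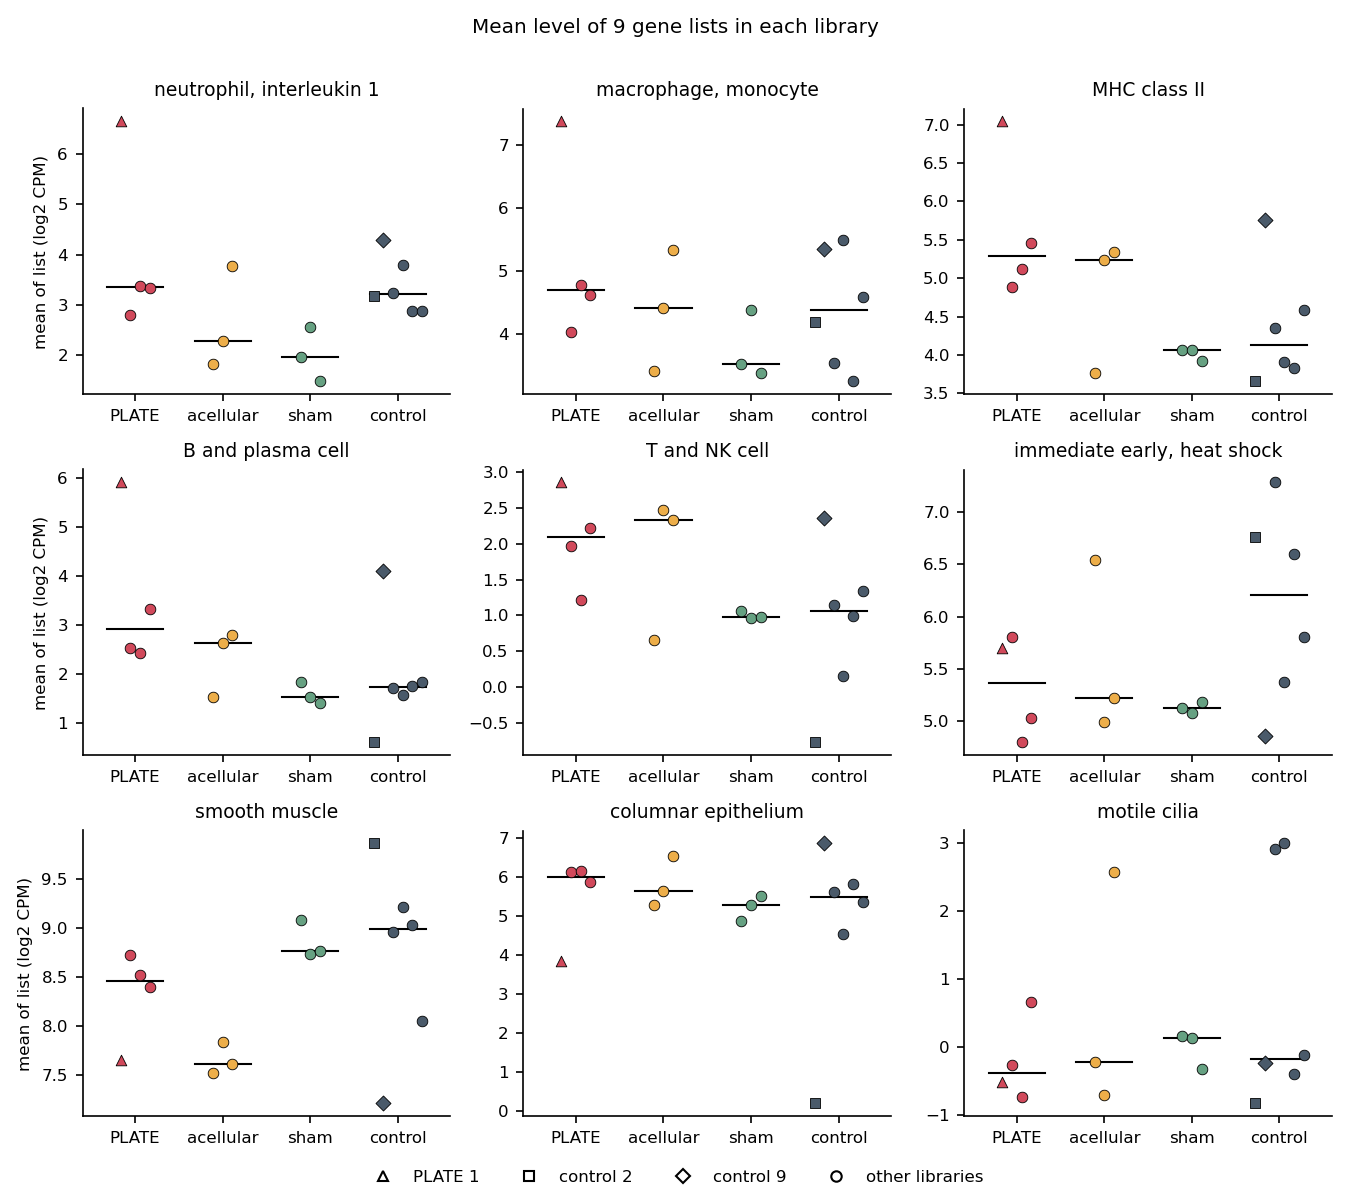
Mean log2 CPM of the tested members of 9 gene lists in each library, with the groups PLATE, acellular, sham and control from left to right and a bar at the group median. PLATE 1 stands above all others for the neutrophil, macrophage, class II and B cell lists, and control 9 is the only control among the PLATE values for class II (5.76 against 4.88 to 7.04 log2 CPM in PLATE).

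Most lymphocyte genes were also higher in PLATE. Of the 36 T and NK cell genes tested, 35 were higher in PLATE (median 1.05), and without PLATE 1 it was 32 of 35 (median 0.61, and 0.40 when PLATE 13 was left out as well). The mean of this list was 2.855, 1.97, 1.22 and 2.22 log2 CPM in PLATE 1, 5, 9 and 13. PLATE 9 lay below control 29 (1.34) as well as control 9 (2.36). Acellular 8 and 10, at 2.48 and 2.33 log2 CPM, lay above PLATE 5, 9 and 13. CXCR6, a chemokine receptor of tissue-resident and memory T cells, was at 74.6, 52.4, 23.9 and 54.5 CPM in PLATE 1, 5, 9 and 13, and between 1.17 and 47.7 CPM (median 16.2) in the controls. Without control 9, which held 47.7 CPM, the controls ended at 19.3 CPM, below each PLATE library. Its log2 fold change was 1.53 ± 0.67, and 1.30 ± 0.73 without PLATE 1, and 1 acellular library was the highest of all at 89.3 CPM. ICOS, a costimulatory receptor of activated T cells, was at 19.9, 1.44, 1.31 and 5.80 CPM in the PLATE libraries, against 0.270 to 3.68 CPM (median 0.673) in the controls, and control 9 was the only control within the PLATE values. IFNG, the interferon made by activated T and NK cells, was at 1.55, 1.18, 0.418 and 1.03 CPM in PLATE 1, 5, 9 and 13, and between 0 and 0.440 CPM (median 0.241) in the controls. For IFNG PLATE 9 lay just under the highest control, control 9, and the other 3 PLATE libraries lay above all controls. A sham library, at 2.96 CPM, was the highest of all.

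B and plasma cell genes had the highest median of all lists, and most of it rested on PLATE 1. All 25 tested members were higher (median 1.95), and 19 of 24 without PLATE 1 (median 0.33, and 0.07 when PLATE 13 was left out as well). The member missing from the 24 was tested only with PLATE 1 included. The list mean was 2.52 and 2.43 log2 CPM in PLATE 5 and 9, below acellular 8 and 10 at 2.63 and 2.78. TNFRSF17, the survival receptor of plasma cells, was at 28.3, 3.75, 5.70 and 6.49 CPM in PLATE 1, 5, 9 and 13, against 0.762 to 9.40 CPM (median 1.51) in the controls. MZB1, a chaperone of antibody assembly, was at 423, 16.3, 24.9 and 46.1 CPM, against 2.79 to 70.3 CPM (median 5.40), and its log2 fold change of 2.84 ± 1.00 was 0.71 ± 0.86 without PLATE 1. MS4A1, the B cell surface antigen CD20, was at 64.6, 2.66, 1.78 and 5.46 CPM, against 0.360 to 11.04 CPM (median 0.634). JCHAIN, which joins polymeric antibodies for secretion across the epithelium, was at 4670, 2232, 3740 and 3156 CPM in the PLATE libraries and between 97.8 and 6289 CPM (median 834) in the controls. All 4 PLATE libraries lay above 5 of the 6 controls for JCHAIN, and control 9, at 6289 CPM, above all of them. FCER2, the low-affinity IgE receptor of B cells, was at 25.3, 1.83, 1.78 and 3.89 CPM, against 0.415 to 4.92 CPM (median 0.656), with control 9 again the only control within the PLATE values (log2 fold change 2.55 ± 0.82, and 0.84 ± 0.70 without PLATE 1). Without control 9 the list's median was 2.61, and 9 of its 24 tested genes were higher in all PLATE libraries than in all other controls, as were 9 of 35 T and NK cell genes (1.9% of all genes). As for class II, these counts follow from the choice of control 9 and are no support.

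**Figure D3:**
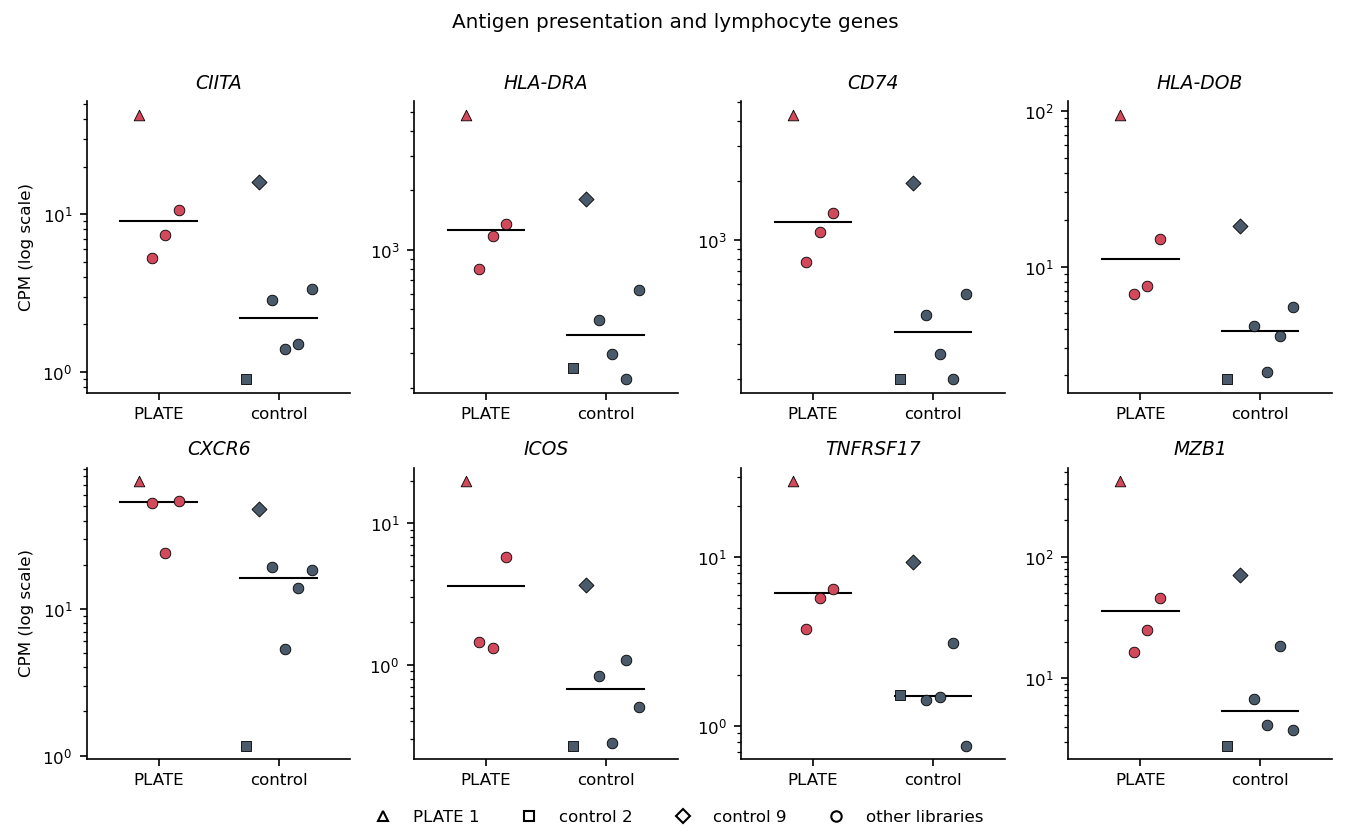
CPM (log scale) of 8 genes of class II presentation, T cells and plasma cells in the 4 PLATE and 6 control libraries, with a bar at the group median. In each panel PLATE 1 is the highest library and control 9 lies among the PLATE values. The other controls lie below every PLATE library (CIITA 0.900 to 3.35 CPM), but for control 25 in MZB1.

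Control 9, the control with high class II and lymphocyte genes, differed from the other controls in its cell make-up. It held the highest columnar epithelium list of the 6 controls, at 6.86 log2 CPM, against 0.19 to 5.82 in the others. Its smooth muscle list was the lowest, at 7.21 log2 CPM, against 8.05 to 9.86. Summed over the 33 columnar genes, the PLATE libraries other than PLATE 1 held 4220 to 5596 CPM, PLATE 1 held 961 CPM and the controls 98.4 to 8839 CPM. The defining columnar markers CDH1, EPCAM and KRT8 had counts in every library. In PLATE 5, 9 and 13 the columnar list mean of 5.86 to 6.14 log2 CPM lay above 5 of the 6 controls. PLATE 1, with the highest class II and lymphocyte lists, had a columnar mean of 3.83 log2 CPM, the second lowest of the 10 libraries. The part of epithelium and muscle content in the immune values was not tested.

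Myeloid genes were higher mainly in PLATE 1. The macrophage list had 31 of 36 members higher (median 1.19), and without PLATE 1 18 of 36 (median 0.00). CD68, a lysosomal protein of macrophages, was at 358, 35.5, 81.7 and 55.2 CPM in PLATE 1, 5, 9 and 13, and between 16.8 and 119 CPM (median 39.9) in the controls. CSF1R, the receptor for the macrophage growth factor CSF1, was at 378, 42.1, 109.4 and 67.5 CPM, against 15.4 to 148 CPM (median 54.9). CD163, the haemoglobin scavenger receptor, was at 56.8, 19.1, 29.7 and 10.97 CPM in the PLATE libraries, against 9.80 to 251 CPM (median 23.3), with 251 CPM in control 24 alone. Only PLATE 1 exceeded the controls for CD68 and CSF1R, and for CD163 a control was the highest library. For the neutrophil and interleukin 1 list the median was 1.13 with all libraries (23 of 30 higher) and -0.59 without PLATE 1 (8 of 29). S100A9, an alarmin carried by neutrophils and monocytes, was at 1191, 19.5, 101.3 and 48.0 CPM in PLATE 1, 5, 9 and 13, and between 29.4 and 218 CPM (median 66.1) in the controls. CXCL8, the main neutrophil attractant, was at 2378, 5.20, 21.5 and 13.97 CPM, against 3.81 to 258 CPM (median 9.48), with control 2 the highest control.

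Among chemokines and their receptors, 17 of 21 members were higher (median 1.16), and 13 of 21 without PLATE 1 (median 0.40, and 0.18 when PLATE 13 was left out as well). CCR7, the receptor that guides dendritic and T cells to lymphatic vessels, was at 29.4, 3.97, 2.25 and 5.21 CPM in PLATE 1, 5, 9 and 13, and between 1.81 and 4.70 CPM (median 1.98) in the controls, so only PLATE 1 and PLATE 13 exceeded them. CCL21, the ligand of CCR7, was lowest in PLATE 1, at 17.2, 135, 278 and 172 CPM, against 65.8 to 213 CPM (median 141). CCL2, the monocyte attractant, was at 35.2, 3.84, 0.942 and 3.20 CPM, against 1.56 to 42.9 CPM (median 11.9), with PLATE 5, 9 and 13 below every control but control 9. Its log2 fold change was -0.54 ± 0.89 with all libraries and -2.54 ± 0.84 without PLATE 1 (unadjusted p = 0.00897 in the second fit). CXCL9, which recruits T cells in response to interferon gamma, was at 8.73, 34.0, 12.6 and 28.2 CPM, against 1.44 to 18.9 CPM (median 8.45). In CXCL9 PLATE 5 and PLATE 13 lay above all controls, and PLATE 1 and 9 within them (log2 fold change 1.29 ± 0.69, and 1.54 ± 0.72 without PLATE 1). The interferon response list, to which CXCL9 belongs, had 19 of 33 members higher (median 0.08), and 26 of 33 without PLATE 1 (median 0.20). With PLATE 1 kept, the median was -0.14 without control 2 and 0.50 without control 9. With PLATE 1 left out as well, these values were -0.026 and 0.595.

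The genes with the smallest p included several of stroma and matrix. FNDC1, a secreted protein with fibronectin type III domains that is made by fibroblasts, had the smallest p of all genes. It was at 137, 44.1, 115.7 and 80.0 CPM in PLATE 1, 5, 9 and 13, and between 27.9 and 60.9 CPM (median 34.4) in the controls. PLATE 1, 9 and 13 lay above every control, PLATE 5 lay within them, and FNDC1 was among the 10 genes of smallest p in both fits (log2 fold change 1.29 ± 0.30 and 1.05 ± 0.30 without PLATE 1, unadjusted p = 0.000551 and 0.00342). Sham libraries held 58.1 to 70.2 CPM of FNDC1, and acellular libraries 21.5 to 42.9 CPM. CD44, the hyaluronan receptor of leukocytes and activated stroma, was at 679.7, 236, 409 and 341 CPM in the PLATE libraries, against 198 to 302 CPM (median 213). For CD44 PLATE 1, 9 and 13 were above every control and PLATE 5 was within them, with a log2 fold change of 0.86 ± 0.23 that was 0.52 ± 0.19 without PLATE 1. Of CD44 the sham libraries held 293.6 to 406.5 CPM and the acellular libraries 237 to 290.9 CPM. C1QTNF3, a secreted protein of the C1q and TNF family made by connective tissue, was at 11.3, 0.699, 2.25 and 6.89 CPM, against 0.605 to 1.22 CPM (median 0.987) in the controls, with PLATE 5 among them and the other 3 above. Sham libraries, at 1.53 to 5.77 CPM of C1QTNF3, also lay above every control, and acellular libraries were at 0.228 to 1.28 CPM. IL23R, the interleukin 23 receptor of innate-like and helper T cells, was at 2.91, 0.568, 0.366 and 0.640 CPM, against 0 to 0.280 CPM (median 0.192), without overlap but at between 7 and 45 counts per PLATE library and between 0 and 7 counts per control. IBSP, COL8A2, BST1, MYBPH and P4HA3 were the other higher genes among the 10 of smallest p, and PLATE 1 was far above the other PLATE libraries in all 5. COL8A2, a short-chain collagen, was at 25.6, 0.655, 0.785 and 1.67 CPM, against 0.465 to 1.19 CPM (median 0.522). P4HA3, a prolyl hydroxylase of collagen, was at 57.95, 8.95, 6.80 and 7.87 CPM, against 0.900 to 9.26 CPM (median 3.12). BST1, an ectoenzyme of myeloid and stromal cells, was at 73.3, 4.02, 5.44 and 11.1 CPM, against 2.49 to 6.08 CPM (median 3.60), with a log2 fold change of 2.51 ± 0.63, and 0.74 ± 0.36 without PLATE 1. In MYBPH, a myosin-binding protein, the libraries were at 18.6, 0.568, 0.785 and 1.48 CPM, against 0 to 1.56 CPM (median 0.257), with a log2 fold change of 3.41 ± 0.97, and 0.92 ± 0.76 without PLATE 1. PLEKHB1, a membrane-associated protein with a pleckstrin homology domain, was the only lower gene of the 10 and was at 1.42, 3.32, 2.197 and 2.51 CPM, against 3.47 to 7.99 CPM (median 4.65), with no overlap of the groups (log2 fold change -1.11 ± 0.31, and -0.94 ± 0.31 without PLATE 1). Acellular libraries held 2.22 to 3.83 CPM of PLEKHB1, and sham libraries 5.68 to 7.13 CPM.

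Without PLATE 1 the 10 genes of smallest p were CILP, FNDC1, THBS3, GRIK4, BRIX1, NR2E1, KATNBL1, SLIT3, DUSP2 and TMEM200A. CILP, a matrix protein of cartilage and of fibroblasts in the heart that binds TGF-beta, had the smallest p of that fit. It was at 37.2, 187, 232 and 178 CPM in PLATE 1, 5, 9 and 13, and between 51.5 and 142 CPM (median 84.2) in the controls, so PLATE 1 was the lowest of these libraries and the other 3 the highest (log2 fold change 0.77 ± 0.40, and 1.10 ± 0.30 without PLATE 1, unadjusted p = 0.00276). THBS3, a thrombospondin of the matrix, was at 23.7, 75.9, 86.2 and 102.3 CPM, against 37.5 to 58.3 CPM (median 50.9), again with PLATE 1 below and PLATE 5, 9 and 13 above all controls. Its log2 fold change was 0.54 ± 0.32 with all libraries and 0.83 ± 0.24 without PLATE 1. The sham libraries held 76.3 to 110.3 CPM of THBS3, and the acellular libraries 146 to 253 CPM of CILP. COL14A1, a collagen that decorates fibrils, was at 335, 803, 1288 and 1667 CPM in the PLATE libraries and between 400.1 and 968 CPM (median 565) in the controls. SLIT3, a secreted guidance protein of fibroblasts, was at 83.3, 270.2, 359 and 463 CPM, against 136 to 281 CPM (median 236), with PLATE 1 below and PLATE 9 and 13 above all controls (log2 fold change 0.38 ± 0.33, and 0.69 ± 0.21 without PLATE 1). For COL14A1 PLATE 1 was likewise lowest and PLATE 9 and 13 highest. LTBP2, a microfibril protein of elastic tissue, was at 6.34, 3.41, 8.16 and 9.45 CPM, against 0.415 to 5.26 CPM (median 0.690). In LTBP2 4 of the 6 controls were under 1 CPM, while control 9 and control 24 reached the PLATE range, and the log2 fold change of 1.73 ± 0.69 was 1.76 ± 0.75 without PLATE 1. DKK3, a secreted protein of the Dickkopf family, was at 65.8, 35.4, 57.8 and 57.7 CPM, against 24.9 to 44.5 CPM (median 32.01), with PLATE 1, 9 and 13 above every control (log2 fold change 0.68 ± 0.24, and 0.57 ± 0.26 without PLATE 1). Sham libraries held 2.80 to 8.81 CPM of LTBP2 and 40.75 to 51.76 CPM of DKK3. Acellular libraries held 1.431 to 2.965 CPM of LTBP2 and 27.03 to 59.27 CPM of DKK3. TMEM200A, a membrane protein, was at 3.62, 41.8, 99.6 and 61.5 CPM, against 25.04 to 52.3 CPM (median 34.3), lowest in PLATE 1 and above all controls in PLATE 9 and 13 (log2 fold change 0.48 ± 0.51, and 0.87 ± 0.27 without PLATE 1). GRIK4, a subunit of kainate glutamate receptors, was at 0.970, 6.59, 1.62 and 3.40 CPM, against 0.180 to 2.001 CPM (median 0.707), with PLATE 5 and 13 above all controls (log2 fold change 1.89 ± 0.64, and 2.19 ± 0.64 without PLATE 1). Sham libraries lay above every control for SLIT3 (379 to 439 CPM), COL14A1 (1145 to 1465 CPM) and TMEM200A (59.9 to 94.8 CPM). Acellular libraries held 216 to 282, 531.5 to 1060 and 55 to 69.5 CPM of these genes. For GRIK4 the sham libraries lay within the control range, at 0.287 to 0.605 CPM. The acellular libraries 6, 8 and 10 held 0.593, 2.42 and 1.73 CPM of GRIK4, with acellular 8 above every control.

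**Figure D4:**
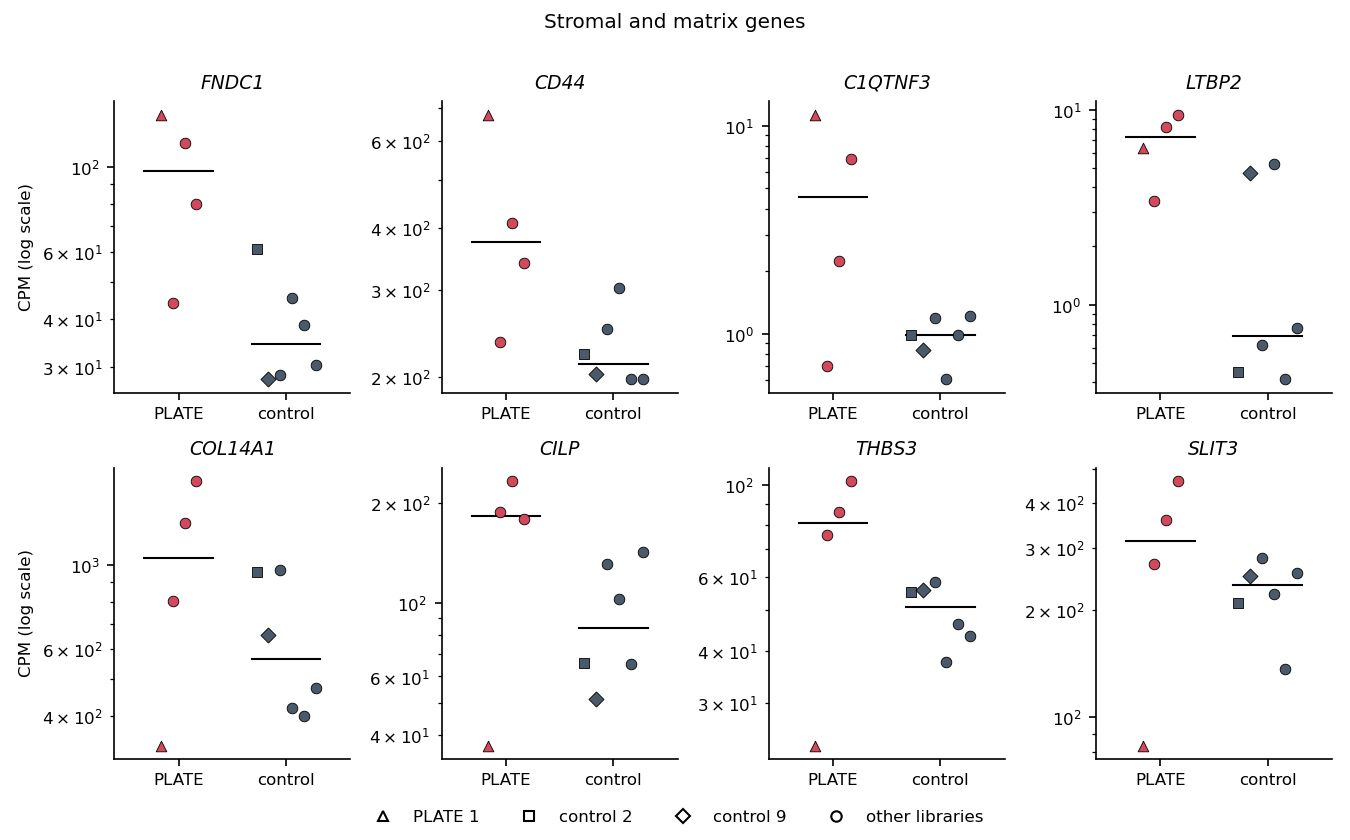
CPM (log scale) of 8 stromal and matrix genes in PLATE and control libraries, with a bar at the group median. PLATE 1 is the highest library for FNDC1, CD44 and C1QTNF3 (137 CPM for FNDC1) and the lowest for COL14A1, CILP, THBS3 and SLIT3, where PLATE 9 and 13 lie above every control.

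The main collagens of the wall overlapped between the groups. The fibrillar matrix list had 40 of 48 members higher (median 0.39), and 32 of 48 without PLATE 1 (median 0.10). COL1A1, the main chain of type I collagen, averaged 3647 ± 862 CPM in PLATE and 3109 ± 2066 CPM in control libraries (SD, n = 4 and 6). COL3A1, the collagen of early scar and of distensible organs, averaged 12900 ± 5163 CPM in PLATE, against 9602 ± 5897 CPM. LOX, which crosslinks collagen and elastin, was at 139.6, 95.3, 110.5 and 102.4 CPM, against 71.0 to 168 CPM (median 82.4). For both collagens the difference of the means was smaller than the SD of the control libraries, and for LOX the PLATE libraries lay inside the control range. The provisional matrix list, with fibronectin, tenascin, periostin and the secreted proteases, had 34 of 42 members higher (median 0.40), and 22 of 42 without PLATE 1 (median 0.03). POSTN, the matricellular periostin of healing wounds, was at 332, 105.9, 16.1 and 32.8 CPM in PLATE 1, 5, 9 and 13, and between 26.6 and 87.7 CPM (median 44.9) in the controls. Of the fibroblast identity list 15 of 25 were higher (median 0.11, and 0.01 without PLATE 1). THY1, a surface protein of fibroblasts, averaged 243 ± 44.3 CPM in PLATE and 240.3 ± 72.0 CPM in control libraries.

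Smooth muscle genes were lower in PLATE. Of the 31 genes of the contractile apparatus 30 had a negative log2 fold change (median -0.56), and 27 without PLATE 1 (median -0.40). SMTN, or smoothelin, a marker of contractile smooth muscle, was at 412, 491, 424 and 461 CPM in PLATE 1, 5, 9 and 13, and between 151 and 1984 CPM (median 832) in the controls. The 4 PLATE libraries were close to each other and 4 of the 6 controls lay above all of them, with control 9 and control 29 below (log2 fold change -0.998 ± 0.52, and -0.96 ± 0.59 without PLATE 1). ACTG2, quoted above, had a log2 fold change of -1.08 ± 0.79, and -1.35 ± 0.91 without PLATE 1, with all 4 PLATE libraries inside the range of the controls. MYH11, the smooth muscle myosin heavy chain, was at 6828, 19230, 17830 and 14180 CPM in PLATE libraries, against 4924 to 54530 CPM (median 22760). The size of the difference depended on control 2, which had the highest smooth muscle list mean of the controls at 9.86 log2 CPM. Without that library the median was -0.29, and without PLATE 1 and control 2 together it was -0.11. The 11 pericyte genes had a median of 0.10, and -0.12 without PLATE 1. Skeletal muscle genes, which mark striated fibres at the edge of the wall, had 12 of 16 lower (median -0.70, and -0.94 without PLATE 1). Without control 2 the median was -0.49, and without PLATE 1 and control 2 it was -0.39. CKM, the creatine kinase of skeletal muscle, was at 2.65, 32.4, 3.09 and 26.2 CPM in PLATE libraries, against 1.56 to 231 CPM (median 60.2), and all 4 PLATE libraries lay inside the control range.

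Most genes of Schwann cells and nerve were lower as well. The Schwann cell and nerve list had 16 of 23 lower, with a median of -0.38 and of -0.35 without PLATE 1. SOX10, the transcription factor of Schwann cells as a whole, was at 1.49, 1.79, 1.94 and 3.10 CPM, against 1.32 to 5.44 CPM (median 3.03), with the groups overlapping.

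Epithelial genes depended on which libraries were counted. The columnar and glandular list had 17 of 33 higher (median 0.02), and 32 of 33 without PLATE 1 (median 0.34). PIGR, the receptor that carries antibodies across mucosal epithelium, was at 181, 1593, 1760 and 1298 CPM in PLATE 1, 5, 9 and 13, and between 6.03 and 2800 CPM (median 452) in the controls. Its log2 fold change was 0.68 ± 0.93, and 1.04 ± 0.95 without PLATE 1, and PLATE 5, 9 and 13 lay above every control but control 9, at 2800 CPM. LCN2, an iron-trapping defence protein of mucosae, was at 11.6, 51.4, 60.4 and 70.6 CPM, against 0.810 to 89.2 CPM (median 12.8), in the same arrangement. With control 2 left out the columnar median of all PLATE libraries was -0.19, and with PLATE 1 left out too it was 0.09. With control 9 left out instead it was 0.476, and 0.697 with PLATE 1 left out too. The squamous list had a median of 0.00, and 0.10 without PLATE 1. Without control 2 these medians were -0.155 and -0.012, and without control 9 they were 0.312 and 0.409. TP63, the master regulator of stratified epithelium, varied from 0.590 to 16.6 CPM within PLATE and from 0.180 to 23.2 CPM within control.

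Motile cilia genes had the lowest median of all lists, and they were high in 2 controls. All 22 tested genes were lower in PLATE (median -2.19, and -1.90 without PLATE 1). A gene near 0 in most libraries, such as SPAG6, could pass the filter on low counts only through the libraries where it was high. The shared sign of the members therefore carries no weight. SPAG6, a protein of the central pair of the axoneme, was at 0.194, 0, 0 and 0.443 CPM in PLATE 1, 5, 9 and 13, against 10.9 and 15.3 CPM in control 16 and control 24 and at most 0.810 CPM in the other 4. The list mean was -0.73 to 0.66 log2 CPM in PLATE and 2.92 and 2.99 in these 2 controls. The remaining controls, at -0.83 to -0.12 log2 CPM, overlapped the PLATE libraries. Acellular 10 was also high, with a list mean of 2.57 log2 CPM and SPAG6 at 6.76 CPM. CFAP44, an axonemal protein, was at 0.517, 0.480, 0.105 and 0.935 CPM in PLATE 1, 5, 9 and 13, against 8.26 and 10.5 CPM in these 2 controls and at most 0.778 CPM in the other 4. Without control 16 the median was -1.12, and without control 24 -0.84. Endothelial genes had 28 of 37 higher (median 0.19, and 0.19 without PLATE 1). PECAM1, an adhesion molecule of endothelium and leukocytes, was at 685, 165, 175 and 174 CPM, against 73.8 to 244 CPM (median 135), with PLATE 1 alone above the controls. VWF, the clotting factor stored in endothelium, was at 303, 251, 502 and 288 CPM in PLATE 1, 5, 9 and 13, and between 80.1 and 396 CPM (median 238) in the controls, with PLATE 9 alone above them.

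Receptors of oestrogen, given above, and progesterone were lowest in PLATE 1. The hormone list had a median of 0.02, and 0.19 without PLATE 1, with 9 and 13 of 17 genes higher. PGR, the progesterone receptor and a classic target of oestrogen, was at 37.2, 174, 105.5 and 119 CPM in PLATE 1, 5, 9 and 13, and between 79.8 and 170.1 CPM in the controls. HSD17B11, a dehydrogenase of steroids, was at 65.3, 22.9, 31.9 and 26.7 CPM, against 14.3 to 24.6 CPM (median 21.5) (log2 fold change 0.84 ± 0.26, and 0.41 ± 0.20 without PLATE 1). The patterning list had 16 of 23 lower (median -0.26, and -0.18 without PLATE 1), and HOXA13, a vaginal patterning factor, was at 6.14, 18.3, 23.8 and 32.5 CPM, against 13.5 to 41.9 CPM (median 25.1). Wnt, BMP and Hedgehog genes had a median of -0.13, and -0.01 without PLATE 1. The circadian list had a median of -0.05, and -0.09 without PLATE 1. Adipocyte genes had a median of -0.13 over 5 genes, and -0.01 without PLATE 1. Mast cell genes had a median of 1.40 over 5 genes, and -0.52 over 4 genes without PLATE 1.

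Immediate early and heat shock genes were lower in PLATE, more so without PLATE 1. These genes are switched on within minutes of stress or growth stimuli. Of 30 genes 28 were lower (median -0.79), 8 of them at an unadjusted p under 0.05 (1.09% of all genes were lower at that p), and without PLATE 1 all 30 were lower (median -1.30), 5 at an unadjusted p under 0.05 (1.18% of all genes). Without PLATE 1 and control 16 the median was -0.79, with 2 genes at that p, beside 183 of all 10851 genes tested (119 of them lower). EGR1, a zinc finger transcription factor, was at 36.4, 247, 26.1 and 33.3 CPM in PLATE 1, 5, 9 and 13. In the controls EGR1 lay at 1538, 800.4, 557 and 341 CPM in control 16, 2, 25 and 29, and at 48.5 and 30.97 CPM in control 24 and 9. So 4 controls were above every PLATE library and 2 were as low as these (log2 fold change -2.69 ± 1.10, and -2.44 ± 1.24 without PLATE 1). FOS, a subunit of the AP-1 transcription factor, was at 86.5, 404, 44.9 and 89.9 CPM, against 26.4 to 1882 CPM (median 827), with the same 4 controls above every PLATE library (log2 fold change -2.45 ± 1.12, and -2.25 ± 1.28 without PLATE 1). DUSP2, an inducible phosphatase of MAP kinases, was at 1.94, 0.873, 0.157 and 0.590 CPM, against 0.605 to 7.81 CPM (median 2.68), and had one of the 10 smallest p-values without PLATE 1 (log2 fold change -1.89 ± 0.73, and -2.59 ± 0.81 without it). The sham libraries, which were operated but not grafted, held 58.9 to 71.2 CPM of FOS. The acellular libraries 6, 8 and 10, also operated, held 1172, 39.1 and 112.5 CPM of FOS, so that acellular 6 was as high as the high controls.

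Genes of growth and secretion were high in PLATE 1 itself. All 44 cell cycle genes had a positive log2 fold change with PLATE 1 (median 0.57), and 43 of 44 a negative one without it (median -0.39). The negative sign rested on control 24. Without PLATE 1 and control 24 the median was 0.09 with 29 of 44 higher, and with only control 24 left out it was 1.13. TOP2A, a topoisomerase of dividing cells, was at 102.8, 27.6, 12.1 and 26.6 CPM in PLATE 1, 5, 9 and 13, and between 5.84 and 57.8 CPM (median 21.1) in the controls, with control 24 the highest control. The unfolded protein response and secretion list had 26 of 29 higher (median 0.31), and 15 without PLATE 1 (median 0.00). EDEM1, which removes misfolded proteins from the endoplasmic reticulum, was at 313, 36.8, 53.8 and 55.8 CPM, against 17.3 to 92.2 CPM (median 31.6). Hypoxia and glycolysis genes had a median of 0.09, and -0.17 without PLATE 1. Nuclear genes of oxidative phosphorylation had 25 of 29 lower (median -0.12), and all 29 without PLATE 1 (median -0.27). With PLATE 1 kept and control 2 left out the median was 0.01, with 17 of the 29 higher. Without both libraries it was -0.14.

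**Figure D5:**
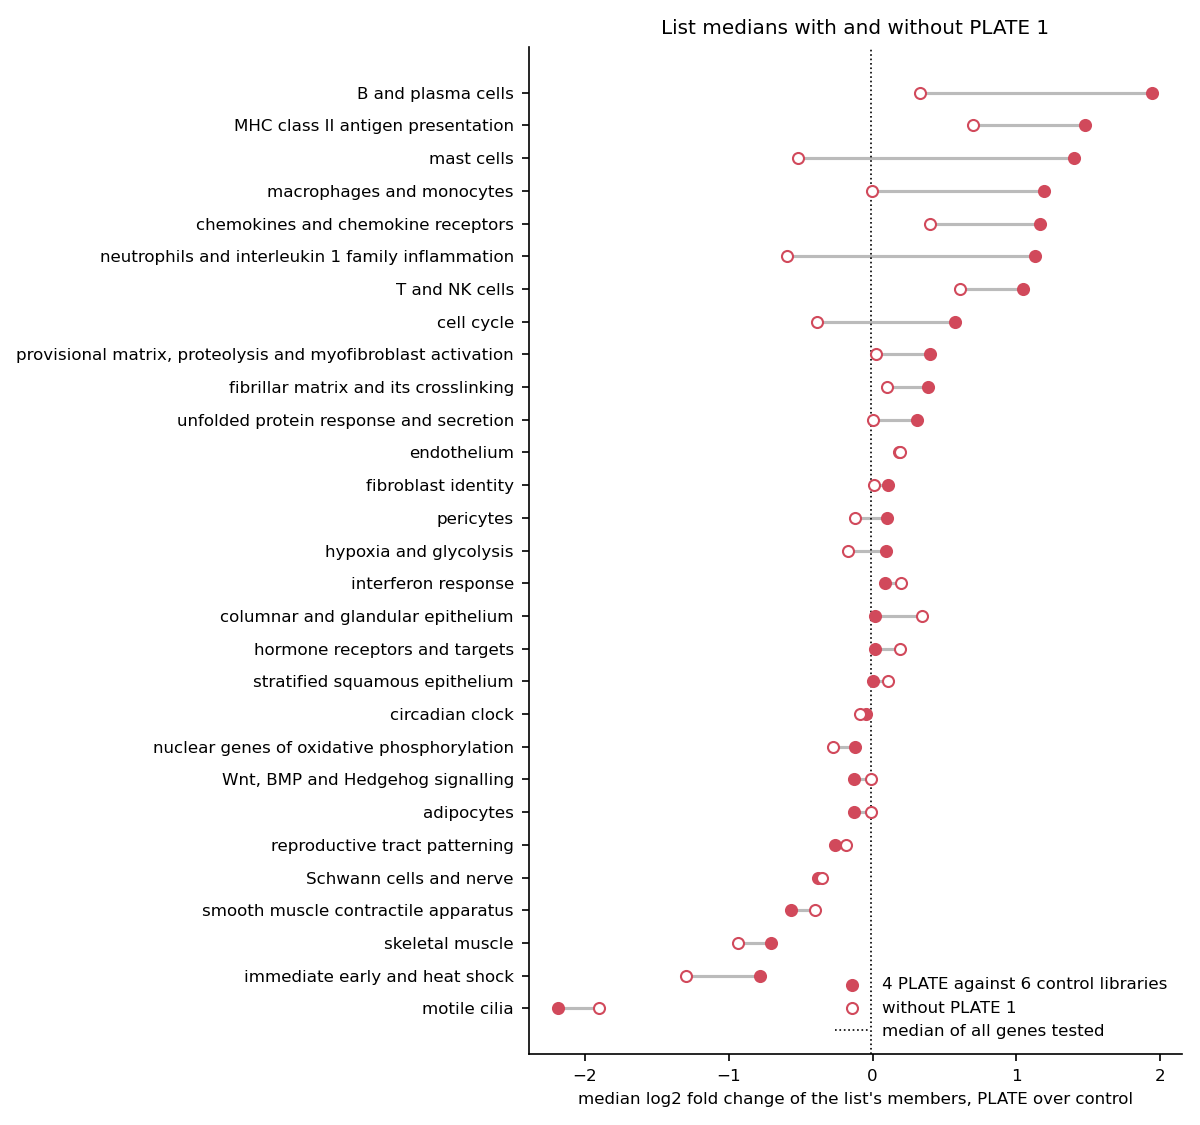
Median log2 fold change (PLATE over control) of the tested members of 29 gene lists, with all libraries (filled) and without PLATE 1 (open); the dotted line is the median of all genes tested. Cell cycle (0.57 and -0.39), neutrophil (1.13 and -0.59) and mast cell lists (1.40 and -0.52) change sign when PLATE 1 is left out (cell cycle is back at 0.09 when control 24 is left out as well), while class II, T cell, smooth muscle, immediate early and cilia lists stay on 1 side. Macrophage (1.19 and -0.001), pericyte (0.10 and -0.12) and hypoxia lists (0.09 and -0.17) change sign too.

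Few genes separated the 2 groups without overlap. With all libraries there were 13, or 0.119% of those tested, 3 higher (0.0274%) and 10 lower (0.0914%) in PLATE. The 3 higher genes, named after their values were seen, were IL23R, given above, CLCN1 and GDF10. The acellular libraries, at 0.395 to 1.186 CPM of IL23R, also lay above every control. CLCN1, a chloride channel of skeletal muscle, was at 1.36, 0.873, 1.20 and 1.53 CPM in PLATE 1, 5, 9 and 13, and between 0.441 and 0.830 CPM (median 0.526) in the controls. GDF10, a growth factor of the BMP family, was at 2.199, 1.48, 1.05 and 0.836 CPM, against 0.254 to 0.810 CPM (median 0.520). The 10 lower genes included PLEKHB1, given above, and GOSR1, a SNARE of the Golgi chosen after its values were seen, at 31.4, 35.9, 30.97 and 30.6 CPM, against 38.7 to 43.5 CPM (median 41.1). For GOSR1 each group spanned a narrow range, and the groups lay close to each other. Without PLATE 1 the groups did not overlap for 90 genes (0.825%), 27 higher (0.247%) and 63 lower (0.577%), CILP and THBS3 among the higher. BRIX1, a ribosome assembly factor, KATNBL1, a regulator of microtubule severing, and NR2E1, a nuclear receptor known from neural stem cells, were among the lower. BRIX1 was at 65.8, 26.8, 23.2 and 26.2 CPM in PLATE 1, 5, 9 and 13, and between 28.9 and 49 CPM (median 38.9) in the controls (log2 fold change -0.13 ± 0.26, and -0.61 ± 0.18 without PLATE 1). KATNBL1 was at 15.8, 9.39, 9.15 and 8.02 CPM, against 11.7 to 14.8 CPM (median 12.8) (log2 fold change -0.29 ± 0.20, and -0.54 ± 0.16 without PLATE 1). In both genes PLATE 1 was the highest of the 10 libraries and PLATE 5, 9 and 13 the lowest. NR2E1 was at 1.81, 0.175, 0.105 and 0.0492 CPM, against 0.270 to 1.58 CPM (median 0.524), a level at which few reads decide the order.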

How the data were processed

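Poly(A) RNA of 16 rabbit vaginal samples was sequenced, and 4 PLATE libraries were compared with 6 control libraries. Per the labels' protocols the authors made stranded libraries with the TruSeq Stranded mRNA kit. Per the submitters' processing notes reads were checked with FastQC, aligned with HISAT2 2.2.1 and assigned with featureCounts, and the deposited values are raw read counts per gene symbol. The genome build, the annotation and the strand setting are not given in the sources used here. A row that pools genes without a symbol, 22.92% to 27.7% of the counts of these 10 libraries, was left out, which restricts shares and levels to genes with a symbol. The trailing index of a column name gave its sample, since the middle number in the descriptions differs from the column names.

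Genes were filtered with filterByExpr, scaled by TMM (trimmed mean of M values) and tested by quasi-likelihood in edgeR 4.0.16 (R 4.3.3). All 16 libraries entered 1 model with a mean per group and 12 residual degrees of freedom. Benjamini-Hochberg adjustment covered every gene that passed the filter, and 0.05 was the threshold. The fit was repeated without PLATE 1, and the procedure was tested on simulated data. The common biological coefficient of variation was 0.44 (0.397 without PLATE 1), and log2 fold changes had a median standard error of 0.276 (0.27). Other alternatives were DESeq2 1.42.0, limma 3.58.1 with voom and quality weights, other scalings and filters, the 2 groups fitted alone, and each PLATE or control library left out in turn. The labels do not say how samples relate to cultures or litters, so p-values measure the spread between these rabbits' libraries.

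The gene lists and the comparison were chosen with earlier results of these data known, so list counts and medians are descriptions and carry no test. The named genes were the 10 of smallest p in each fit, defining members of each list and its 2 members of smallest p in each fit, the 10 genes highest in PLATE 1 (at 10 CPM or more) relative to the other libraries, and the 10 lowest. A gene outside this rule is named as chosen after its values were seen. Counts without overlap compare every PLATE library with every control library. Some results are not reported here.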

Additional observations from a re-analysis of the deposited data

Results flagged for a closer look

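Each value below stood apart from the rest of its group by Dixon's test at the 95% level, in 21 of the 162 groups of libraries examined. Chance flags about 8.1 of 162 groups, but many of these genes were chosen because PLATE 1 is extreme in them or for a small p, so that expectation does not apply to them and the count of 21 carries no weight. Gene and list values are log2 CPM, lists being the mean over tested members, and the nearest other library of the same group is given after each.

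PLATE 1 stood apart in 13 of them. Its mean was 6.652 for the neutrophil and interleukin 1 list (nearest PLATE library 3.386) and 7.901 for the unfolded protein response list (7.002). It was 3.832 for columnar epithelium (5.859), 4.617 for hormone receptors and targets (5.419) and 2.265 for the Wnt, BMP and Hedgehog list (3.104). Among genes, PLATE 1 was high for IL1B at 10.89 (3.513), IBSP at 7.824 (-2.015), PECAM1 at 9.421 (7.452), BRIX1 at 6.042 (4.75) and P4HA3 at 5.859 (3.178). It was low for CILP at 5.221 (7.477), ESR1 at 5.552 (8.437) and PIGR at 7.501 (10.34).

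PLATE 5 stood apart in EGR1, at 7.947 (5.188), and in the squamous epithelium list, at 4.301 (3.612). Control 9 stood apart in the B and plasma cell list, at 4.098 (1.838), and in FCER2, at 2.328 (0.2133). Control 25 was high for COL8A2, at 0.37 (-0.4548).

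Control 2 had a columnar epithelium mean of 0.1859 (nearest control 4.538). It had counts on 10797 named genes (11427 in the nearest control), and its 10 highest genes took 32.26% of named counts (20.62%). What sets PLATE 1, control 2 and control 9 apart was not tested.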

How the results depend on the processing

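Under every alternative run, 0 genes passed the adjusted threshold with any of the 3 tools, both with and without PLATE 1. The number of genes whose PLATE and control libraries did not overlap was 13, and it ran from 17 to 295 with 1 library left out, the highest value without control 9. It was 139 without PLATE 1 and control 2, 640 without PLATE 1 and control 9, and 730 without all 3, an alternative chosen after seeing the data. In the fit without PLATE 1 the count was 90, and 119 to 640 with 1 further library left out. Fewer libraries allow more genes without overlap by construction. Genes at an unadjusted p under 0.05 numbered 480, and 298 with the 2 groups fitted alone.

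4 genes named for their height in PLATE 1 changed sign. IL1B (3.81) was at -1.96 without PLATE 1, -1.19 under voom with quality weights and also without PLATE 1 and control 2, -2.04 without PLATE 1 and control 9, and -1.10 without all 3. Its values with 1 library left out ran from -1.96 to 4.59. MMP3 was at -1.82 without PLATE 1, -1.80 without PLATE 1 and control 2, -0.94 without PLATE 1 and control 9, and -0.60 without all 3, with 1 library left out ranging from -1.82 to 6.87. ARG1 was at -0.33 without PLATE 1 and -0.070 without PLATE 1 and control 9, with a range of -0.33 to 4.68. IBSP was at -1.48 under voom with quality weights. The cause of the voom values was not tested, and the other changes of sign came with PLATE 1 left out.

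No paired analysis was possible because only the number 9 occurs in both groups. With 4 and 6 libraries, differences well above the median standard error of 0.276 could also be missed. FNDC1, with a log2 fold change of 1.29 ± 0.30, had an adjusted p of 0.998 in edgeR. That 0 genes were called does not show that no gene differed. Genes near 1 CPM rest on few reads.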
